A study of Homo sapiens with 12 samples.

Results

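The genes of 7 surface proteins that restrain complement or phagocytosis, or bind complement fragments, on B cells were followed at the RNA level after binding of anti-CD20 antibody. They were the membrane complement regulators CD46, CD55 and CD59, the complement receptors CR1 and CR2, the "do not eat me" ligand CD47 and the inhibitory Fc receptor FCGR2B. The members were the rows of the raw count table whose Ensembl identifier carries one of these symbols, which gave 7 of 58884 genes. Each of the 7 was found, and 6 passed the filter on low counts in each cell line. CR1 did not pass in either line.

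U2932 and TMD8 are established human cell lines of activated B-cell-like diffuse large B-cell lymphoma (DLBCL). Each line was exposed for 4 h to 20 µg/mL of rituximab (R, a chimeric anti-CD20 mAb), ofatumumab (OF, a human anti-CD20 mAb) or a human IgG1 isotype that binds no CD20, with 2 libraries for each of the 6 conditions and 12 in all. The 2 replicates of a line were cultures kept apart for 1 week before treatment, so that every value describes 1 line and not DLBCL in general. The culture number used below is the replicate number of the title, taken to mark a shared culture. All groups grew in medium with heat-inactivated bovine serum, and the treatment notes name no active serum and no effector cells, so that the cells were measured without the attack that these proteins limit.

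Anti-CD20 mAbs can recruit C1q to the cell and start the classical complement pathway. CD46 (membrane cofactor protein) and CR1 help factor I to cleave deposited C3b and C4b, CD55 (decay-accelerating factor) takes apart the C3 and C5 convertases, and CD59 keeps the membrane attack complex from being completed. CR2 binds the C3d left on a target and joins CD81 in a coreceptor of the B-cell receptor. CD47 engages SIRPA on macrophages and holds back phagocytosis, and FCGR2B, the one inhibitory Fc gamma receptor, can bind the Fc part of a bound mAb on the same cell.

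The stretches before the starts of CD46, CD59, CD47 and FCGR2B, which were higher together after R in U2932, are shown because they differ in base composition. Each is the 250 bases before a transcription start in RefSeq (GRCh38.p14), read 5′ to 3′ on the gene's strand, with the GC box GGGCGG and the CCAAT box in capitals on either strand. For genes with several starts the one nearest the start of the gene in GENCODE 29 was taken.

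CD46 (chr1:207751804-207752053, + strand): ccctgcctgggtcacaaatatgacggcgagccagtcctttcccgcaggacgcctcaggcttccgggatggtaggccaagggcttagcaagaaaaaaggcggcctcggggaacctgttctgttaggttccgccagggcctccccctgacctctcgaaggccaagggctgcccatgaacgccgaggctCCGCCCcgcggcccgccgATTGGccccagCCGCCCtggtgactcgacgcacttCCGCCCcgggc
CD59 (chr11:33736480-33736729, - strand): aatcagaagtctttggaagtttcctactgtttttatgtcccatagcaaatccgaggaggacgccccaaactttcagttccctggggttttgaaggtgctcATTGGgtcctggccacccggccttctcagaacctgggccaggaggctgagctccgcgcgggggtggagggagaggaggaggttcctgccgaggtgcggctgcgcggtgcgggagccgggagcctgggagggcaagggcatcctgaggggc
CD47 (chr3:108091032-108091281, - strand): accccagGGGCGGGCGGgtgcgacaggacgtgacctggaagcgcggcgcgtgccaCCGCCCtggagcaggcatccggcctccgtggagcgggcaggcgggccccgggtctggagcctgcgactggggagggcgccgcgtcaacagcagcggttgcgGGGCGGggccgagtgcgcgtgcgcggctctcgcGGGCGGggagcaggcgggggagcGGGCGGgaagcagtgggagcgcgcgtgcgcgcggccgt
FCGR2B (chr1:161662893-161663142, + strand): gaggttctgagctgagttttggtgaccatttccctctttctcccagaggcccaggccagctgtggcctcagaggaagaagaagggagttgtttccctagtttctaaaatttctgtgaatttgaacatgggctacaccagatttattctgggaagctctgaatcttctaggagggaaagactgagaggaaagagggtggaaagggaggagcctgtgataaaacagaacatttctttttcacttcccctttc

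The CD46 window was 67.6% G and C with 21 CpG, 3 GC boxes and 1 CCAAT box. The CD59 window was 62.0% G and C with 12 CpG, no GC box and 1 CCAAT box. The window of another RefSeq start of CD59 (chr11:33736424-33736673), which overlaps it, had 70.4% G and C, 18 CpG and 2 GC boxes. The lack of a GC box thus depends on the start taken. The CD47 window reached 79.6% G and C with 39 CpG and 6 GC boxes, of which 2 overlap. The FCGR2B window was the poorest of the 4, with 46.4% G and C, 0 CpG and neither box. A GC box was present in 42.6% and a CCAAT box in 32.0% of 35116 RefSeq windows of this length. The AP-1 site TGANTCA, the cAMP response element TGACGTCA and the TATA box TATAAA had no match in the 4 windows, against 6.57%, 1.65% and 10.7% of all windows. At other starts, whose windows are not printed, the AP-1 site matched 2 times in CD59 and 1 time in FCGR2B. The heat shock element core GAANNTTC matched once in CD59 and once in FCGR2B, against 5.78% of all windows. These matches describe letters only. For CD55, the 250 bases before the RefSeq start lie wholly within an exon of a longer GENCODE transcript and are not printed.

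The 12 libraries held 16521068 to 21191535 counts in U2932 and 15440226 to 27110612 in TMD8. All 6 B-cell markers checked, MS4A1, CD79A and PAX5 among them, reached at least 1 CPM (counts per library size, scaled by TMM) in every library, whereas the summed myeloid, NK-cell and erythroid marker lists stayed at or below 1.01 CPM. The T-cell list was at 0.506 to 1.03 CPM in U2932 and 16.5 to 27.7 CPM in TMD8, where CD5 gave most of it. The OF and isotype libraries of culture 2 of TMD8 stood apart, with 7.05% to 7.78% of their counts on ribosomal protein genes against 10.9% to 11.8% in the other 4 TMD8 libraries. In U2932 this share moved with the antibody: it was 6.98% and 7.27% after R, 6.69% and 6.83% after OF and 5.24% and 4.90% under isotype. The part of either difference in the results was not tested. MS4A1, which encodes CD20, the target of both mAbs, had a mean of 908 CPM ± 72.6 (SD, n = 2) under isotype in U2932 and 1148 CPM ± 286 (SD, n = 2) in TMD8.

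The levels in cells whose CD20 was not bound come first. In isotype-treated U2932 the order per kb of exon was CD46 first with 19.7 CPM per kb ± 0.859 (SD, n = 2), then CD47 with 11.6 ± 0.247, CD59 with 5.62 ± 0.276, CD55 with 4.13 ± 0.426, CR2 with 2.65 ± 0.345 and FCGR2B with 1.41 ± 0.00265. No 2 neighbours in this order overlapped between libraries. When the length of the longest transcript was used instead, CD55 (8.43 CPM per kb) came before CD59 (7.63) and FCGR2B (4.43) before CR2 (3.06), so the order within these pairs depends on the transcript that is counted. In TMD8 the order was different. CD47 led with 20.8 CPM per kb ± 0.400, followed by CD46 with 9.60 ± 1.20 and FCGR2B with 8.67 ± 0.885, whose libraries overlapped, and then CD55 with 3.12 ± 0.385 and CD59 with 2.35 ± 0.460. With the longest transcript, FCGR2B (27.3 CPM per kb) came before CD46 (24.8). CR2 was near the bottom in TMD8 with 0.275 CPM per kb ± 0.125.

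CR1 transcripts were close to absent. The gene received 0 to 3 counts per library and 9 in all in U2932, and 1 to 6 per library and 20 in all in TMD8. The U2932 library with 0 counts (R, culture 1) allows up to 0.174 unscaled CPM (3 counts), for counting error only. CR1 shares 7.97% of its 50-base windows with CR1L, a neighbouring gene related to it in sequence, and CR1L had 60 to 126 counts per library in TMD8 and 0 to 10 in U2932. Reads of these 2 genes may therefore have been exchanged, and no change of CR1 with the antibody was detectable at this depth.

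**Figure D1:**
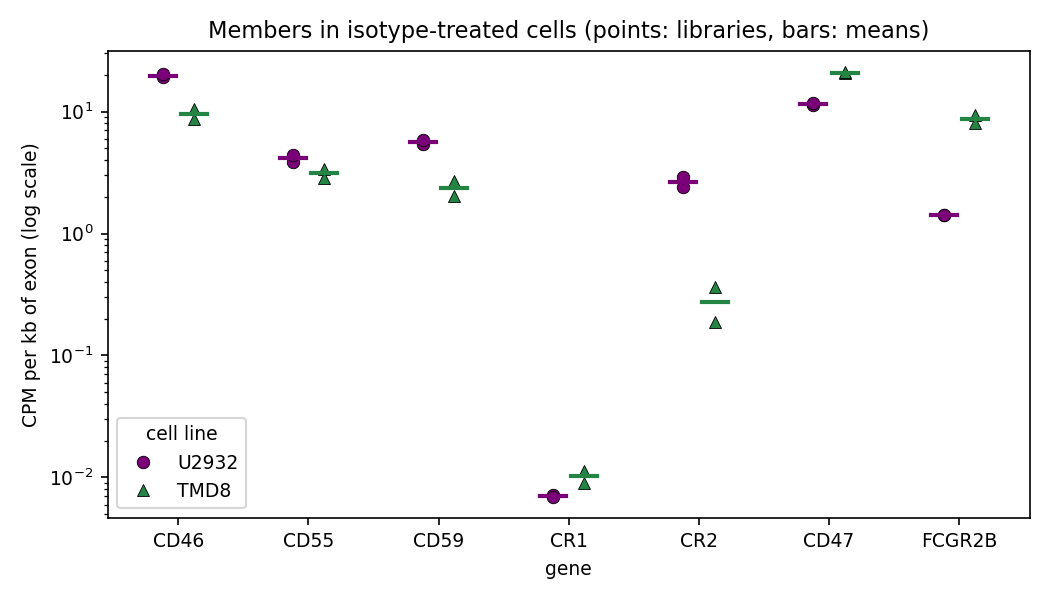
Level of the 7 genes under isotype in U2932 (circles) and TMD8 (triangles), in CPM per kb of exon on a log axis, with 1 point for each of 2 libraries and a bar at the mean. CD46, CD59 and CR2 were higher in U2932, CD47 and FCGR2B were higher in TMD8, and CR1 was near 0.01 CPM per kb in both.

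The lines differed in every member that could be tested. Under isotype, all 6 were called by edgeR (quasi-likelihood test, adjusted p-value under 0.10), beside 66.8% of the 16187 genes tested, so that this share says little about these genes in particular. CR2 showed the widest gap, with 11.8 and 14.2 CPM in U2932 and 0.914 and 1.78 CPM in TMD8, a log2 difference of 3.20 (SE 0.26, adjusted p = 9.0e-07). Its low level in TMD8 rested on 16 to 50 counts per library. FCGR2B went the other way, with 9.35 and 9.38 CPM in U2932 and 61.8 and 53.5 CPM in TMD8, a log2 difference of -2.62 (SE 0.13, adjusted p = 2.5e-08). In bulk RNA, a smaller share of cells with a transcript and less of it per cell cannot be told apart.

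CD59 and CD46, which act at the last and at an early step of the cascade, were both higher in U2932. CD59 was at 56.2 and 60.2 CPM in U2932 and at 27.8 and 21.0 CPM in TMD8, a log2 difference of 1.26 (SE 0.15). CD46 was at 166 and 176 CPM in U2932 and at 91.0 and 76.2 CPM in TMD8, a log2 difference of 1.03 (SE 0.14). CD47 was lower in U2932, with 93.8 and 96.6 CPM against 169 and 174 CPM, a log2 difference of -0.85 (SE 0.12). CD55 differed least, with 22.6 and 26.2 CPM against 20.1 and 16.8 CPM, a log2 difference of 0.41 (SE 0.15, adjusted p = 0.0329). The CD55 call was lost without isotype culture 2 of U2932 (adjusted p = 0.188) or of TMD8 (adjusted p = 0.175).

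The partners and close relatives of the members differed between lines as well. CD81, the tetraspanin that joins CR2, was higher in U2932, by a log2 difference of 1.26 (SE 0.16) under isotype. QPCTL, the enzyme that modifies the end of CD47 bound by SIRPA, was likewise higher in U2932 (log2 difference 2.12, SE 0.14), opposite to CD47. FCGR2C, an activating receptor gene that shares sequence with FCGR2B, had 286 to 582 counts per library in TMD8 and 2 to 10 in U2932. FCGR2A had 18 to 31 in TMD8 and 0 to 1 in U2932. FCGR2B shares 32.6% of its 50-base windows with FCGR2C and 8.18% with FCGR2A, so that its TMD8 level in particular may hold reads of these relatives or miss reads assigned to them. Of the longest coding transcripts of CD55, CR2 and CD47, 0% of the windows occurred in another gene, while CD46 shared 1.78% with the pseudogene CD46P1 and CD59 shared 7.68% with the overlapping gene AL049629.2.

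**Figure D2:**
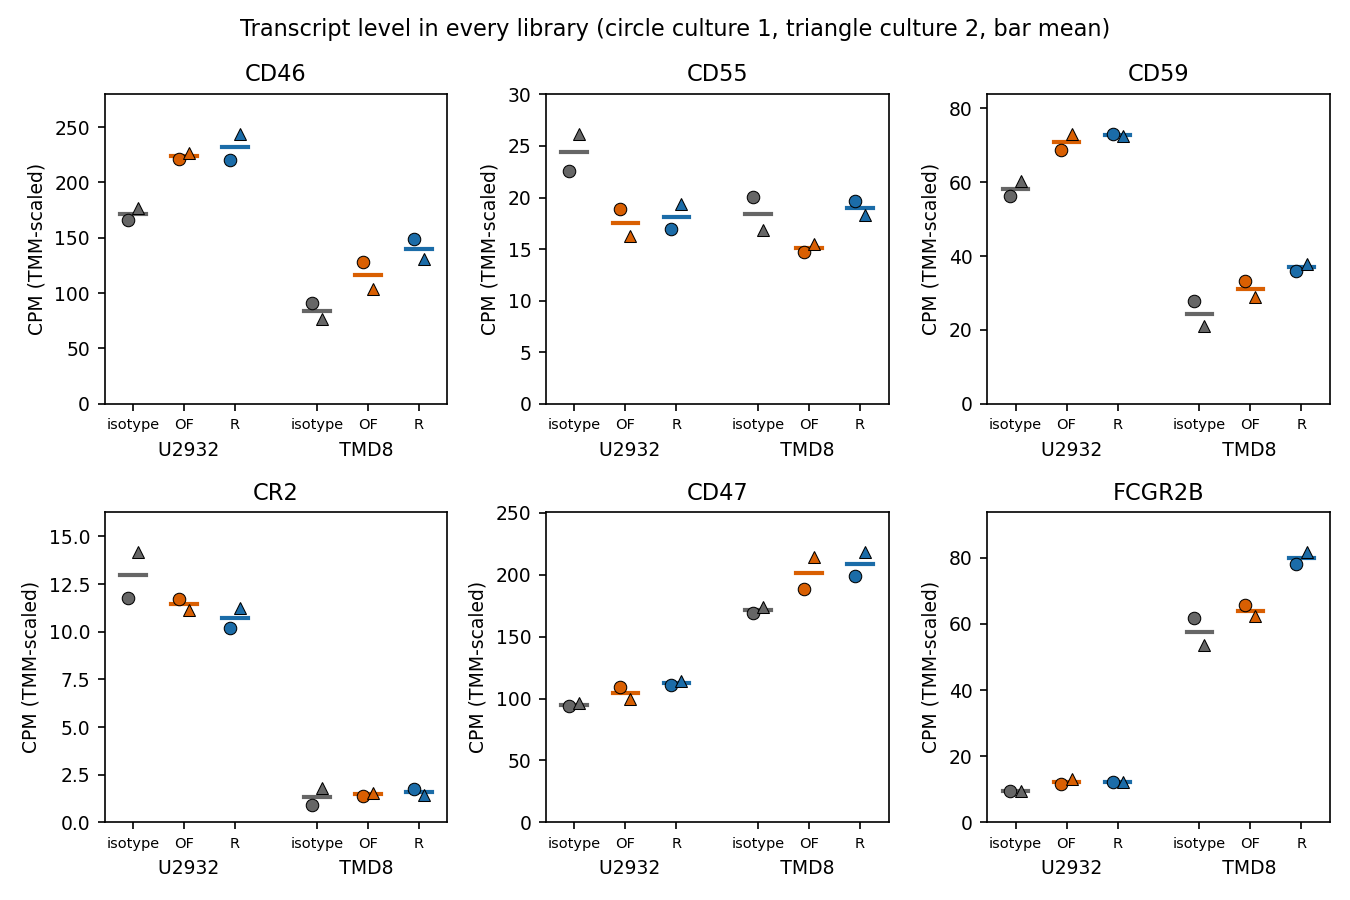
TMM-scaled CPM of the 6 tested genes in every library, by cell line and antibody, each panel with its own axis from 0. Circles are culture 1, triangles culture 2 and bars the mean. In U2932, CD46, CD59, CD47 and FCGR2B were higher and CD55 and CR2 lower in all 4 anti-CD20 libraries than in both isotype libraries. For CR2 the nearest values were 11.73 CPM after OF and 11.77 CPM under isotype. The libraries of 59.7% of all genes after R and 64.2% after OF did not overlap with isotype either.

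The next question was what CD20 binding by R did to these genes. In U2932, 3 regulators or checkpoints of different pathways rose with CD46, and CD55 fell. CD46, CD59, CD47 and FCGR2B were higher and CD55 lower after R than under isotype, which made 5 of 6 tested members, beside 34.2% of the 14635 genes tested (16.8% higher and 17.4% lower). The median log2 fold change (log2FC) of the 6 members was 0.28, and that of all genes was -0.02.

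CD46 showed the lowest adjusted p-value of the members. Its level was 220 and 244 CPM after R and 166 and 176 CPM under isotype, a log2FC of 0.44 (SE 0.09, adjusted p = 4.2e-04), or 1.35-fold. CD59 followed with 73.0 and 72.5 CPM after R against 56.2 and 60.2 CPM, a log2FC of 0.32 (SE 0.09, adjusted p = 0.0117). The R and isotype libraries did not overlap for any of the 6 members, beside 59.7% of genes. CD55 was at 17.0 and 19.3 CPM after R against 22.6 and 26.2 CPM, a log2FC of -0.43 (SE 0.12, adjusted p = 0.00992), or 0.744 times its isotype level. Its 302 and 365 counts after R were the fewest among the 3 membrane regulators in these libraries.

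The 2 checkpoints of phagocytosis and Fc binding rose less firmly. CD47 was at 111 and 114 CPM after R and 93.8 and 96.6 CPM under isotype, a log2FC of 0.24 (SE 0.09, adjusted p = 0.0457). FCGR2B was at 12.3 and 12.1 CPM after R and 9.35 and 9.38 CPM under isotype, a log2FC of 0.38 (SE 0.14, adjusted p = 0.0399). CR2 was at 10.2 and 11.2 CPM after R and 11.8 and 14.2 CPM under isotype. Its log2FC of -0.27 (95% interval -0.56 to 0.01, adjusted p = 0.150) did not pass. It passed once each library's trend of log2 CPM with GC content was removed (-0.26, adjusted p = 0.0957), with 40.9% of genes called. The order of the values was the same in both cultures: within culture 1 the R library differed from isotype by 0.41 (CD46), 0.38 (CD59), 0.24 (CD47), 0.39 (FCGR2B) and -0.41 (CD55) on the log2 scale, and within culture 2 by 0.47, 0.27, 0.24, 0.37 and -0.43.

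These changes were small, none reaching 1.5-fold. When all 12 libraries were fitted together, which joins their spread, scaling and filter, the adjusted p-values of the 5 members were 0.121 (CD46), 0.147 (CD55), 0.247 (CD59), 0.297 (CD47) and 0.145 (FCGR2B), beside 7.46% of genes called. Without the R library of culture 1, the calls of CD55, CD47 and FCGR2B were lost (adjusted p = 0.125, 0.113 and 0.140), and without that of culture 2, those of CD47 and FCGR2B (adjusted p = 0.180 and 0.115).

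OF gave values close to those of R in U2932, measured against the same 2 isotype libraries. The OF and isotype libraries did not overlap for any of the 6 members, beside 64.2% of genes. For CR2 the gap was very narrow, with 11.73 CPM after OF and 11.77 CPM under isotype in culture 1. CD46, CD59 and FCGR2B were higher and CD55 lower, which made 4 of 6 tested members beside 36.4% of genes (18.7% higher and 17.8% lower). CD46 was at 221 and 227 CPM after OF, a log2FC of 0.39 (SE 0.09, adjusted p = 0.00124) against isotype. CD59 was at 68.8 and 73.0 CPM, a log2FC of 0.29 (SE 0.09, adjusted p = 0.0219). FCGR2B was at 11.4 and 13.2 CPM, a log2FC of 0.40 (SE 0.14, adjusted p = 0.0294). CD55 was at 18.9 and 16.3 CPM, a log2FC of -0.47 (SE 0.12, adjusted p = 0.00494), the lowest level of this gene in U2932.

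CD47 after OF lay at 109 and 99.8 CPM, a log2FC of 0.14 (95% interval -0.05 to 0.32, adjusted p = 0.271). It passed with this GC trend removed (log2FC 0.28, adjusted p = 0.00357), with 40.1% of genes called. The longest coding transcript of CD47 is 37.1% G and C. CR2 lay at 11.7 and 11.1 CPM, a log2FC of -0.18 (95% interval -0.46 to 0.11, adjusted p = 0.367). Without the OF library of culture 2, only CD46 of these members remained called. The adjusted p-values of the others were then 0.119 (CD55), 0.292 (CD59) and 0.340 (FCGR2B). Without the OF library of culture 1, CD59 was not called (adjusted p = 0.112). With all 12 libraries fitted together, CD55 alone passed (adjusted p = 0.0994), beside 8.69% of genes.

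**Figure D3:**
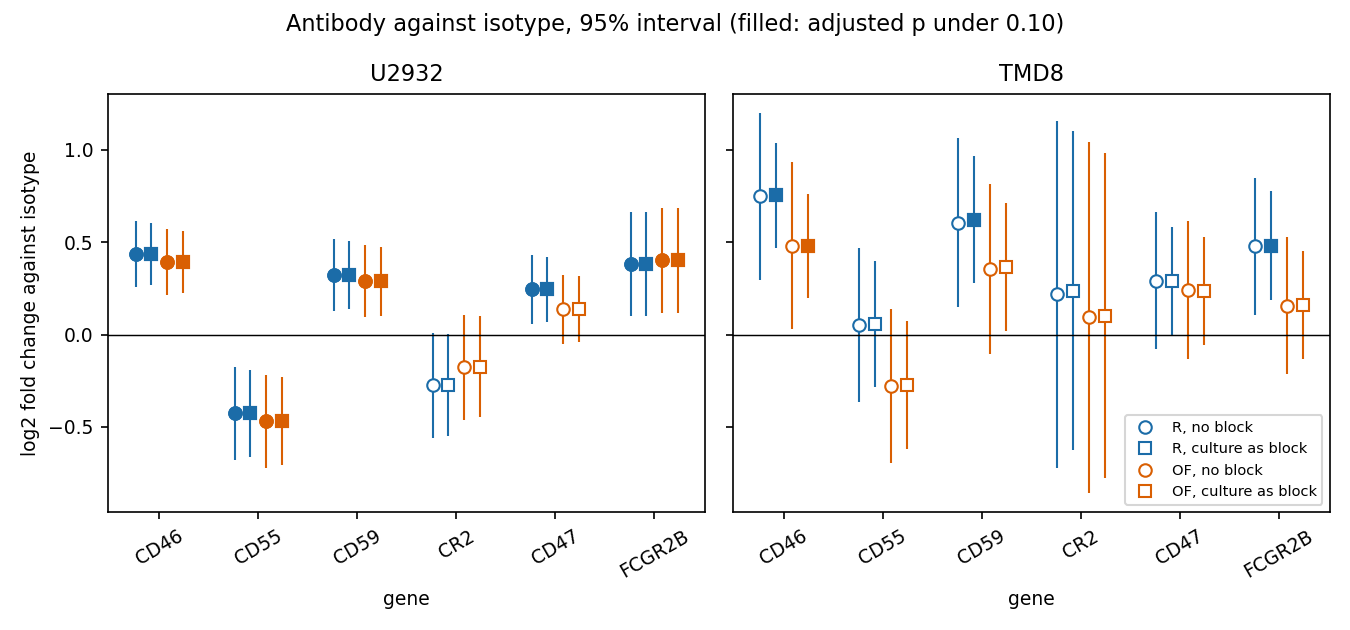
Log2 fold change of the 6 tested genes after R (blue) and OF (orange) against isotype in U2932 and TMD8, with 95% intervals from edgeR, without (circles) and with (squares) the culture as a block. Filled symbols have an adjusted p-value under 0.10. In TMD8, no symbol is filled without the block, and CD46, CD59 and FCGR2B after R and CD46 after OF are filled with it.

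In TMD8 the same direction was seen for CD46 and CD59, with larger values and a wider spread. The calls depended on the fit: a term for culture, the tool, the filter, removal of the GC trend and the libraries included each changed them. The R library of culture 2, with 10.9% of its counts on ribosomal protein genes, did not stand apart as the OF and isotype libraries of that culture did. Without a term for culture, 0 of 6 members passed after R, beside 0.647% of 14227 genes. At an unadjusted p-value under 0.05 there were CD46, CD59 and FCGR2B, or 3 of 6 members beside 15.9% of genes, and the median log2FC of the 6 members was 0.38, beside -0.02 for all genes. CD46 was at 148 and 131 CPM after R and at 91.0 and 76.2 CPM under isotype, a log2FC of 0.75 (SE 0.19, adjusted p = 0.152) or 1.68-fold. With the culture as a block, it was 0.75 (SE 0.12, adjusted p = 0.0108), beside 17.7% of genes called. DESeq2 without the block also called CD46 (adjusted p = 0.0474), beside 5.07% of genes. In a single simulated data set for this comparison, false calls exceeded the limit of 10% in every fit. They made up 13.5% without the block, 14.8% with it and 24.1% with DESeq2, and their spread over draws is not known. Those data held no culture effect, so they cannot show how the block behaves with paired cultures.

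CD59 was at 36.0 and 37.8 CPM after R and 27.8 and 21.0 CPM under isotype, with a log2FC of 0.61 (SE 0.19, adjusted p = 0.213) and of 0.62 with the block (SE 0.15, adjusted p = 0.0384). FCGR2B was at 78.0 and 81.6 CPM against 61.8 and 53.5 CPM, with 0.48 (SE 0.16, adjusted p = 0.223) and 0.48 with the block (SE 0.13, adjusted p = 0.0501). CD47 was at 199 and 218 CPM against 169 and 174 CPM, with a log2FC of 0.29 (95% interval -0.08 to 0.66, adjusted p = 0.413). For 4 of 6 members, these 3 and CD46, both R libraries were above both isotype libraries, and the libraries of 47.9% of genes did not overlap.

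CD55 did not show the fall in TMD8 after R. It was at 19.7 and 18.3 CPM, within the isotype values of 20.1 and 16.8 CPM, with a log2FC of 0.05 (95% interval -0.36 to 0.47, adjusted p = 0.913). CR2 was at 1.76 and 1.43 CPM after R, within the isotype values of 0.914 and 1.78 CPM, and its log2FC of 0.22 had a 95% interval of -0.72 to 1.16.

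After OF in TMD8, 0 of 6 members passed without the block, beside 0.815% of genes, with CD46 alone under an unadjusted p-value of 0.05, or 1 of 6 members beside 14.1% of genes. The OF and isotype libraries did not overlap for 5 of 6 members, all but CR2, beside 38.6% of genes. CD46 was at 128 and 104 CPM, a log2FC of 0.48 (SE 0.19, adjusted p = 0.327) without and 0.48 (SE 0.12, adjusted p = 0.0507) with the block, which called 14.3% of genes. CD59 was at 33.2 and 28.9 CPM, a log2FC of 0.36 (95% interval -0.10 to 0.82). CD47 was at 188 and 215 CPM, a log2FC of 0.24 (95% interval -0.13 to 0.61). FCGR2B was at 65.7 and 62.3 CPM, a log2FC of 0.16 (95% interval -0.21 to 0.53). CD55 was at 14.8 and 15.5 CPM, below both isotype libraries, with a log2FC of -0.28 (95% interval -0.70 to 0.14). CR2 was at 1.37 and 1.55 CPM, a log2FC of 0.09 (95% interval -0.86 to 1.04).

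The OF and isotype libraries of culture 2, which stood apart, weigh on both comparisons. Without them, 4 members were higher after R, namely CD46 (log2FC 0.61, adjusted p = 3.0e-05), CD59 (0.40, adjusted p = 0.0295), FCGR2B (0.36, adjusted p = 0.0282) and CD47 (0.29, adjusted p = 0.0619), beside 30.3% of genes. After OF, CD46 was then higher (0.49, adjusted p = 0.00724) and CD55 lower (-0.45, adjusted p = 0.0896), beside 23.4% of genes. In this fit the lone isotype and OF libraries were assumed to vary as the 2 R libraries do, and it was chosen after the data had been seen.

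The responses of both lines were then compared directly. In neither antibody did any of the 6 members differ between U2932 and TMD8 in its change from isotype, beside 0.321% of 16187 genes for R and 0.105% for OF. CD55 after R came nearest, with a difference of -0.47 on the log2 scale (95% interval -0.94 to -0.01, adjusted p = 0.411), or -0.47 (adjusted p = 0.204) with the culture as a block. For CD46 the difference was -0.30 after R (95% interval -0.75 to 0.14) and -0.09 after OF (95% interval -0.53 to 0.36). The interval for CD46 after R holds a difference as large as its change in U2932.

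R and OF were compared with each other in each line. In U2932 none of the 6 members passed the adjusted p-value of 0.30 used for this comparison, beside 0.00683% of genes, which is 1 gene. Log2 differences ran from -0.10 (CR2) to 0.11 (CD47), with adjusted p-values of 0.910 to 0.988. The libraries of R and OF did not overlap for 1 of 6 members, CD47, beside 40.8% of genes. The 95% interval for CD46 was -0.13 to 0.22 and that for CD55 was -0.22 to 0.31. The interval for CD46 did not reach its change from isotype (0.39 after OF), but equality was not shown.

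In TMD8 none of the 6 members passed an adjusted p-value of 0.10 between R and OF either, beside 0% of genes called by edgeR. The differences were 0.33 for CD55 (95% interval -0.09 to 0.75), 0.32 for FCGR2B (-0.05 to 0.69), 0.27 for CD46 (-0.18 to 0.72), 0.25 for CD59 (-0.21 to 0.71), 0.12 for CR2 (-0.85 to 1.09) and 0.05 for CD47 (-0.32 to 0.42). All 6 were above 0, but the largest had an adjusted p-value of 0.733, and with the culture as a block the lowest adjusted p-value was 0.271, for FCGR2B. At an unadjusted p-value under 0.05 there was no member without the block, beside 4.09% of genes. Both R libraries were above both OF libraries for CD46, CD55, CD59 and FCGR2B, and overlapped with them for CD47 and CR2. The share of all genes without overlap was not counted for this comparison, so this separation cannot be read as a trait of the members.

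CD46 and CD55 are genes of one cluster on chromosome 1 and act on the same C3b and C4b, and their ratio within a library is free of library scaling. This ratio was formed after the values had been seen and is given without a test. In U2932 there were 7.34 and 6.74 CD46 reads per CD55 read under isotype, 13.0 and 12.6 after R and 11.7 and 13.9 after OF. In TMD8 there were 4.54 and 4.53 under isotype, 7.53 and 7.17 after R and 8.69 and 6.72 after OF. Every anti-CD20 library was thus above both isotype libraries of its line, at 11.7 to 13.9 against 6.74 to 7.34 in U2932 and 6.72 to 8.69 against 4.53 to 4.54 in TMD8. In TMD8 after R, CD55 lay within its isotype values and CD46 above them, while in U2932 both genes lay outside.

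**Figure D4:**
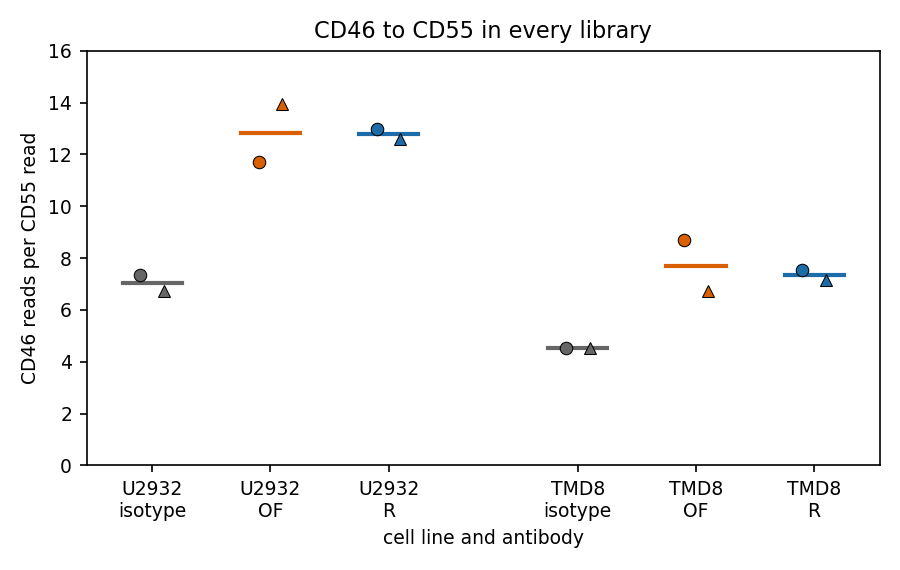
Reads of CD46 per read of CD55 in each library, by cell line and antibody, from raw counts, with circles for culture 1, triangles for culture 2 and bars at the mean of 2. The 4 anti-CD20 libraries sit at 11.7 to 13.9 in U2932 and at 6.72 to 8.69 in TMD8, above the isotype libraries at 6.74 to 7.34 and 4.53 to 4.54.

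CD55, CR2, CR1 and CD46 share a cluster. On GRCh38 (GENCODE 29) CD55 lies at chr1:207321376-207386804, CR2 at chr1:207454230-207489895, CR1 at chr1:207496147-207641765 and CD46 at chr1:207752057-207795513, all on the + strand, with 474 kb from the start of CD55 to the end of CD46. CR2 ends 6.25 kb before CR1 starts, and 110 kb separate the end of CR1 from the start of CD46. C4BPB, which encodes a chain of the fluid-phase regulator C4b-binding protein and lies upstream of CD55, was low, with 8 to 27 counts per library in U2932, and fell after OF there (log2FC -1.05, SE 0.44, adjusted p = 0.0738). Its value after R was -0.64 (adjusted p = 0.270). CR1L, between CR1 and CD46, was tested in TMD8 only, with 0.12 after R (adjusted p = 0.878) and 0.31 after OF (adjusted p = 0.725). In U2932, CD46 was thus higher and CD55 lower after both mAbs within this stretch, with CR2 between them not called. CD59, CD47 and FCGR2B are elsewhere, at chr11:33703010-33736491, chr3:108043094-108091862 and chr1:161663147-161678654.

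**Figure D5:**
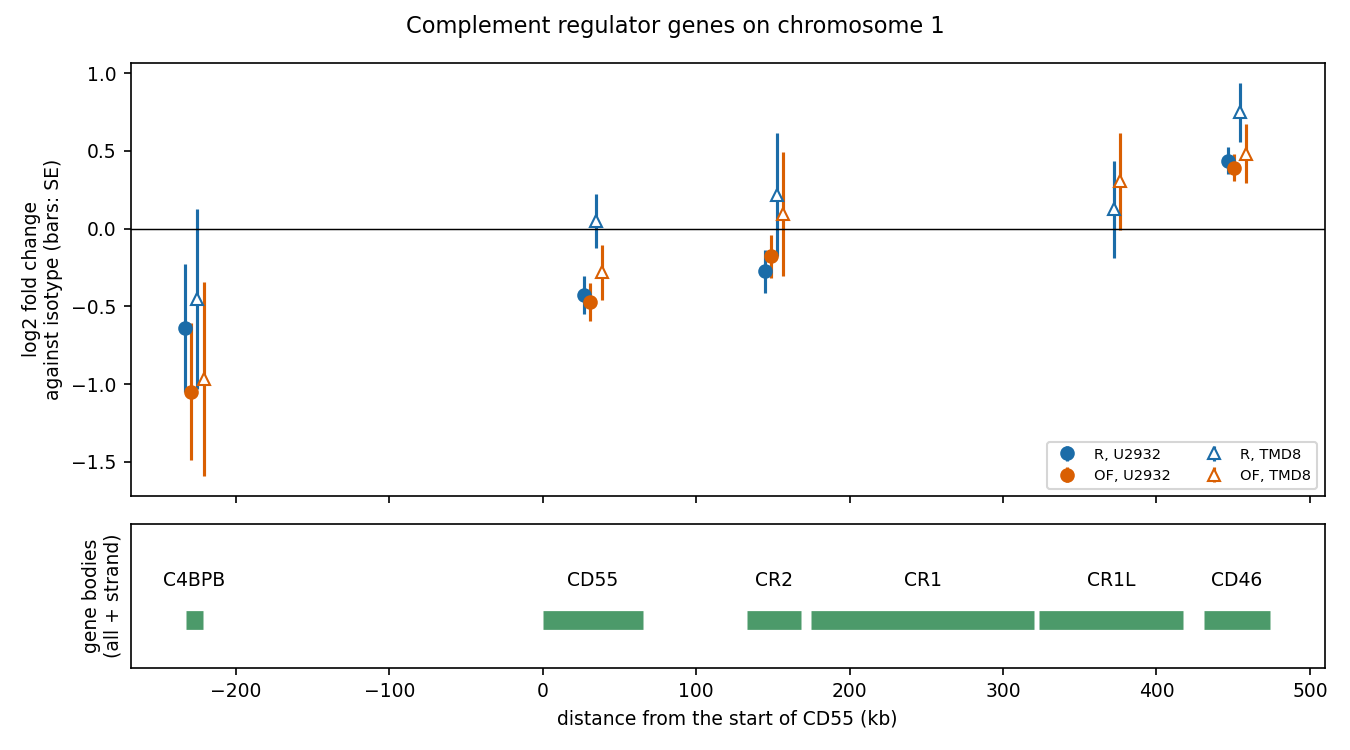
Log2 fold change against isotype (bars are SE) of the tested regulator genes of the chromosome 1 cluster, placed by distance from the start of CD55 in kb, with the gene bodies below. Filled circles are U2932 and open triangles TMD8. CD55 lay below 0 and CD46 above 0 in U2932 after both mAbs.

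Across the 12 libraries, after each line's mean was taken out, CD46, CD59 and FCGR2B moved alike. Pearson's r of log2 CPM was 0.95 for CD46 with CD59, 0.92 for CD59 with FCGR2B and 0.89 for CD46 with FCGR2B. CD47 was less like them, with r of 0.66 to 0.70. CD55 had r of -0.30 with CD46 and -0.24 with CD59, and CR2 had r of 0.00 with CD46. The libraries share treatments, batches of culture and base composition, so these values describe the set and carry no p-value. Among 14652 genes, the 3 most like CD46 were RPA2, RPL22 and TWF1 (r = 0.995, 0.989 and 0.988), and those most like CD59 were CDCA7L, EIF5A2 and UPF2 (0.988, 0.982 and 0.974). For FCGR2B they were THOC5, PIK3CD-AS2 and CLCN3 (0.954, 0.947 and 0.945), and for CD55 they were MIA2, STAM2 and TENT2 (0.957, 0.952 and 0.951). For CD47 they were SGK3, WDR44 and HMGN5 (0.941, 0.940 and 0.934), and for CR2 RNF43, E2F3 and LINC02870 (0.914, 0.884 and 0.884).

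The wider pathways were read from 7 lists of 89 genes. Only 38 of them passed the filter in U2932 and 46 in TMD8. After R in U2932, 7 were higher and 2 lower, 23.7% of those tested beside 34.2% of all genes, and after OF 15 were higher and 5 lower, 52.6% beside 36.4%. In TMD8 none passed after R, beside 0.647% of all genes, and 2 were higher and 1 lower after OF, 6.52% beside 0.815%. With the culture as a block there were 7 and 2 after R, 19.6% beside 17.7%, and 9 and 2 after OF, 23.9% beside 14.3%. At an adjusted p-value of 0.10 without the block, the TMD8 genes after OF were PTPN6, FCRLB and SLAMF7. No list gene passed between R and OF in either line. In U2932 the median log2FC of the tested genes after R and OF was 0.27 and 0.15 for the Fc receptor list, 0.15 and 0.18 for the FCGR2B partners and 0.18 and 0.17 for the phagocytosis list, beside -0.02 and 0.01 for all genes. It was 0.52 and 0.52 for the CR2 group, 0.23 and 0.47 for the leucocyte receptors, -0.27 and -0.26 for the components and -0.64 and -1.05 for the other regulators, each from 2 or 3 tested genes. With the GC trend removed, the medians after OF were 0.10 for the FCGR2B partners, 0.08 for the phagocytosis list and -0.13 for the components.

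Of 16 soluble and other membrane regulators of complement 3 were tested in each line, and the others did not pass the filter on low counts. C1QBP, which encodes a mostly mitochondrial protein that also binds C1q, was the abundant one, with 212 to 253 CPM in U2932 and 283 to 395 CPM in TMD8, and it is named after its values were seen. After R in U2932 its log2FC was 0.19 (adjusted p = 0.103), and with the culture as a block it was called (0.19, adjusted p = 0.0744). In U2932, CSMD1, a large membrane inhibitor with 7 to 42 counts per library, was lower after R (log2FC -1.51, SE 0.39, adjusted p = 0.00482) and after OF (-1.73, SE 0.41, adjusted p = 0.00224). Of 22 complement components 3 were tested in each line, and in U2932 after OF the factor D gene CFD was higher (0.78, SE 0.24, adjusted p = 0.0157) and C1S lower (-0.76, SE 0.29, adjusted p = 0.0453), both with fewer than 100 counts per library. Among 7 leucocyte receptors for complement fragments, 2 were tested in U2932 and 5 in TMD8, and ITGB2, the shared chain of CR3 and CR4, was higher after OF in U2932 (0.50, SE 0.19, adjusted p = 0.0429), a call lost with the GC trend removed (0.36, adjusted p = 0.107).

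In the CR2 group of 4 genes, 3 were tested in U2932. CD81 was higher after R (log2FC 0.52, SE 0.10, adjusted p = 2.0e-04) and after OF (0.64, SE 0.10, adjusted p = 1.6e-05), while CR2 itself was not called. In TMD8 none of the 4 passed without the block.

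The phagocytosis list held 17 genes, of which 10 were tested in U2932 and 12 in TMD8. SLAMF7, a receptor that can promote phagocytosis of tumour cells, was lower in U2932 after R (log2FC -0.61, SE 0.09, adjusted p = 1.4e-05) and after OF (-0.71, SE 0.09, adjusted p = 2.1e-06), and in TMD8 after OF (-1.31, SE 0.21, adjusted p = 0.0935). In TMD8 after R its log2FC was -1.07 with the culture as a block (adjusted p = 0.00548). CALR, whose product calreticulin is a pro-phagocytic signal when it reaches the surface, was slightly higher in U2932 after R (0.24, SE 0.07, adjusted p = 0.0146) and after OF (0.27, SE 0.07, adjusted p = 0.00781). TYRO3, a receptor tyrosine kinase of the TAM family, was higher after OF in U2932 (1.07, SE 0.22, adjusted p = 6.7e-04), from 48 to 85 counts per library. QPCTL was higher after OF (0.28, SE 0.10, adjusted p = 0.0326), and this call was lost with the GC trend removed (0.14, adjusted p = 0.144). SIRPA, the receptor of CD47, was at 19.1 to 23.9 CPM in U2932 and was called in no comparison with isotype.

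Of the 15 other Fc receptors and relatives, 9 were tested in U2932. FCRL5 was higher after R (log2FC 0.72, SE 0.10, adjusted p = 4.3e-06) and OF (0.64, SE 0.10, adjusted p = 2.5e-05), as was FCRLA (0.48 and 0.40, SE 0.08 for both, adjusted p = 9.5e-05 and 6.5e-04). FCRL4 also passed after both mAbs, at 5 to 18 counts per library. FCRLB was higher after OF in U2932 (0.52, SE 0.16, adjusted p = 0.0183) and in TMD8 (1.37, SE 0.23, adjusted p = 0.0966). FCGR2C, which shares sequence with FCGR2B, had a log2FC in TMD8 of 0.50 after R (SE 0.20, adjusted p = 0.282). With the culture as a block it was 0.51 (SE 0.14, adjusted p = 0.0551), beside 0.48 for FCGR2B.

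All 8 signalling partners of FCGR2B were tested in both lines. PTPN6, the phosphatase SHP-1, was higher in U2932 after R (log2FC 0.78, SE 0.12, adjusted p = 2.8e-05) and after OF (0.67, SE 0.12, adjusted p = 1.7e-04) and in TMD8 after OF (1.20, SE 0.19, adjusted p = 0.0935). INPP5D, the phosphatase SHIP-1 that FCGR2B recruits, was higher after OF in U2932 (0.33, SE 0.11, adjusted p = 0.0286). The adaptor gene DOK3 was higher there after R (0.21, SE 0.09, adjusted p = 0.0847) and after OF (0.28, SE 0.09, adjusted p = 0.0224). SYK, a kinase of the B-cell receptor, was higher after OF (0.31, SE 0.09, adjusted p = 0.00818).

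The transcript of the target of both mAbs was read in the same fits. In U2932, MS4A1 was higher after R (log2FC 0.77, SE 0.08, adjusted p = 1.1e-07) and after OF (0.67, SE 0.08, adjusted p = 1.0e-06). In TMD8 it was higher with the culture as a block, after R (0.97, SE 0.17, adjusted p = 0.0141) and after OF (0.62, SE 0.17, adjusted p = 0.0640), whereas it did not pass without the block.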

How the data were processed

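Per the labels, reads of the 12 RNA libraries went through Trim Galore 0.6.0 and STAR 2.7.0e on GRCh38, and the authors deposited raw counts per Ensembl gene with no normalization. The annotation release and the strand setting of the counting were not given in the sources used here, so reads of overlapping genes on opposite strands may not have been separated. Symbols and positions came from the gene name table and GENCODE 29 (58611 of 58884 genes had a position), and columns were assigned to libraries by their names.

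The fits were made with edgeR 4.0.16 (R 4.3.3). The 6 libraries of a line were scaled by TMM, filtered with filterByExpr (at least 10 counts) and fitted with 1 mean per antibody by the quasi-likelihood method. Benjamini-Hochberg adjustment ran over all genes tested, with a limit of 0.10 for a call (0.30 when R was set against OF in U2932). Differences between lines and between their responses came from a fit of all 12 libraries. Levels are CPM scaled over the 12 libraries; log2 CPM for likeness had a prior count of 2. R and OF were each compared with the same isotype libraries.

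Alternatives were DESeq2 1.42.0, other scalings and filters, the culture as a block, single libraries left out, and other limits. In a further one, each library's trend of log2 CPM with GC content was removed. Each line was split into 2 cultures before treatment. A shared replicate number in the titles was taken to mark a shared culture, which is an inference that the titles do not state. Deviations of same-numbered libraries correlated across genes with r of -0.04 to 0.10 in U2932. In TMD8, r was 0.58 for OF with isotype but only 0.18 for R with either. The block assumes the same culture shift for all antibodies of a line, so in TMD8 it describes the R libraries less well. With 2 libraries a group, no permutation of a comparison goes below p = 0.333, and p-values rest on the model. Replicates differed by more than counting error, with a chi-square per degree of freedom of 2.30 to 94.5.

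The fits were tested on a single simulated data set per line, drawn without an effect of culture and with true log2 changes of 1 or 2. These are larger than the changes of the members with antibody, so the recovery does not speak to those. Of true log2 changes of 1 for R with isotype, edgeR recovered 100% in U2932 (14320 genes) and 47% in TMD8 (13907 genes). For R with isotype, against the limit of 10%, false genes made up 12.3% of the edgeR calls in U2932 and 13.5% in TMD8. With the block this was 11.9% in U2932 and 14.8% in TMD8, and with DESeq2 5.71% and 24.1%. The 6 tested members were described with their value in every library, and CR1 with the range and total of its counts in each line. Other genes were named if called in a comparison with isotype, at most 4 a list, or if they are near copies, neighbours or partners of a member, and the 3 genes most like each member. Members and lists were chosen with earlier results of these data known. Promoter sequences came from RefSeq (GRCh38.p14). Figures were drawn with matplotlib 3.10.9. The values of 1 list gene are not reported here.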

Additional observations from a re-analysis of the deposited data

How the results depend on the processing

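After R in U2932, 5 members were called, and this became 3 with no filter, 4 by library size alone or with only the 4 libraries compared, 6 with the GC trend removed (CR2 added), 0 with all 12 libraries in one fit and 0 with a limit of 1.5-fold. After OF in U2932, 4 became 5 with the GC trend removed (CD47 added), 1 with all 12 libraries in one fit and 0 with a limit of 1.5-fold. After R in TMD8, 0 became 1 with DESeq2 (CD46), with no filter (CD46, adjusted p = 0.0337) or with the GC trend removed (CD46), 3 with the replicate block, alone or with the GC trend removed, 3 with all 12 libraries in one fit and 4 without OF and isotype culture 2. After OF in TMD8, 0 became 1 with the replicate block, alone or with the GC trend removed, 1 with all 12 libraries in one fit and 2 without OF and isotype culture 2. The replicate block changed no other call of a member, and the cause was not tested for any of these shifts beyond what their construction shows. The share of all genes called moved with the setting too. After R in TMD8 it was 0.647% in the main fit, 5.07% with DESeq2 and 17.7% with the block. After OF in TMD8 it was 0.815%, and 14.3% with the block. In U2932 it was 34.2% after R, 40.9% with the GC trend removed and 7.46% with all 12 libraries in one fit. After OF it was 36.4%, 40.1% and 8.69%. For other settings, single libraries left out among them, the member counts here stand without this share. They therefore do not set the members apart from other genes. At an unadjusted p-value under 0.05 in edgeR, 2265 of 14227 genes passed after R in TMD8 in the main fit. With all 12 libraries in one fit it was 3732 of 16187. After OF in TMD8 it was 2009 in the main fit and 3367 with all 12 libraries. Over the alternatives other than single libraries left out, the adjusted p of CD46 was 1.0e-06 to 0.121 after R and 1.3e-06 to 0.158 after OF in U2932, and 3.0e-05 to 0.178 and 0.00724 to 0.583 in TMD8. For CD59 after R it was 6.6e-04 to 0.247 in U2932 and 0.0295 to 0.258 in TMD8, for FCGR2B 0.0171 to 0.145 and 0.0282 to 0.339, and for CD55 in U2932 0.00357 to 0.147 after R and 0.00128 to 0.0994 after OF. The range for CD47 was 6.1e-04 to 0.297 after R and 0.00357 to 0.662 after OF in U2932. Scaling by library size alone moved the median log2 fold change of all genes after R in TMD8 from -0.02 to -0.16 and in U2932 from -0.02 to -0.12; in U2932 it removed the calls of CD47 (0.15) and FCGR2B (0.28) and added CR2 (-0.37, adjusted p = 0.0459).

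With single libraries left out, the members called ranged from 2 to 6 after R and from 1 to 5 after OF in U2932, and from 0 to 2 after R in TMD8. No value that changed sign was called before or after, among the members and alternatives tried. CD55 after R in TMD8 became -0.078 by library size alone, -0.042 with the GC trend removed, -0.041 with the block added, and -0.089 without the culture 2 libraries, and ranged from -0.079 to 0.20 with single libraries left out. CR2 in TMD8 ranged from -0.13 to 0.79 after R and from -0.25 to 0.67 after OF, lowest without isotype culture 1 and highest without isotype culture 2. Between R and OF in U2932, CD46 became -0.0019 with the GC trend removed and -0.0021 with the block added, and CD55 -8.3e-05 with both. Ranges with single libraries left out were -0.025 to 0.11 for CD46, -0.058 to 0.15 for CD55, -0.0093 to 0.078 for CD59 and -0.12 to 0.090 for FCGR2B. Between R and OF in TMD8, CD47 became -0.019 by library size, -0.16 with the GC trend removed and -0.15 with the block added, with a range of -0.026 to 0.14 for CD47 and -0.033 to 0.28 for CR2. In the difference of the R response between lines, CD47 became 0.14 with the GC trend removed, with or without the block, and FCGR2B 0.012 without the culture 2 libraries, with ranges of -0.11 to 0.027 and -0.20 to 0.015. In that of the OF response, CD59 became 0.029 without them, with ranges of -0.28 to 0.13 for CD59, -0.23 to 0.072 for CD46, -0.19 to 0.00064 for CD47 and -0.85 to 0.10 for CR2. Of the values for single members, 395 of 432 with a library left out kept their direction and their side of the limit. The depth of CR1, and of CR2 in TMD8, limits what could be seen.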

Other observations

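CD5, a T-cell marker that some B cells also carry, had 249 to 755 counts per library in TMD8 and 0 in each of the 6 libraries of U2932. With the culture as a block, CD5 was lower after R in TMD8 (log2 fold change -0.56, SE 0.15, adjusted p = 0.0520 in edgeR). CD274, which encodes the checkpoint ligand PD-L1, was higher after R in TMD8 in the same fit (0.48, SE 0.12, adjusted p = 0.0437), as was LILRB1, an inhibitory receptor for class I molecules (0.52, SE 0.14, adjusted p = 0.0531). Without the block none of these 3 passed (adjusted p = 0.200, 0.328 and 0.245 for CD5, CD274 and LILRB1), and the block called 17.7% of all genes in this comparison.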
